A study of Rattus norvegicus with 12 samples.

Results

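Cirbp and Rbm3 encode cold-inducible RNA-binding proteins, and they were followed in bronchoalveolar lavage fluid (BALF) cells of rats given lipopolysaccharide (LPS), hypobaric hypoxia or both. Every probe set that names Cirbp alone or Rbm3 alone was taken, which gave 3 probe sets for Cirbp and 1 for Rbm3 among 31099 on the array. Both genes were selected on their measured differences between groups in these arrays, with results already known, so all differences between groups in them are given as descriptions, without a test.

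CIRBP and RBM3 are small proteins with a single RNA recognition motif that bind mRNA and influence its stability, splicing and translation. In mammalian cells their mRNAs are raised by mild cooling and lowered by warmth, opposite to the heat shock genes, whose transcription factor HSF1 is activated by heat and other proteotoxic stress. In mouse and human cells both are also raised by low oxygen, and CIRBP released from cells is known as a ligand of TLR4, the receptor for LPS. LPS is a classical pyrogen in rats, and acute hypoxia lowers their body temperature. Body temperature of these rats is not given in the sources used here, so the effect of temperature cannot be told apart from that of LPS or hypoxia itself.

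RNA came from 8-week-old Sprague-Dawley rats, male by the study's methods, fasted and without water during the experiment and lavaged in the right lung under chloral hydrate. The COMB group received 0.5 mg/kg LPS into the tail vein and then 6 h in a decompression chamber at 405.35 mmHg, which corresponds to 5000 m or 11.2% oxygen. The LPS group received LPS in normoxia, the HPO group the 6 h of hypobaric hypoxia, and the CTL group saline in normoxia. Each group held 3 RNA pools, 1 array each, numbered 1 to 3 in the order in which their values are given. Of the COMB pools 2 list 2 rats in the labels, and all other pools list 3. The labels number the rats of each pool, and numbers that recur across groups were taken as different rats, which the labels do not state. The p-values measure the spread between these pools.

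The lavage was a mixture of cells. Of the 11 alveolar macrophage markers that passed the filter on low signal, 10 were above the median of every array, with a summed intensity of 28052 to 31438 in COMB, 32032 to 34696 in LPS, 32249 to 32803 in HPO and 31306 to 33575 in CTL pools. The macrophage markers Marco, Siglec1 and Msr1 were not matched alone to a probe set and were not used. The sum hides a split list. Of the 11, 4 were called lower and 2 higher in COMB than in CTL, beside 11.0% of all genes each way. By limma Cidec differed by -2.42 (adjusted p = 3.77e-05) and Pparg by -1.47 (adjusted p = 2.98e-05). Chi3l1 differed by 3.81 (adjusted p = 0.00115) and Car4 by 3.18 (adjusted p = 0.0103). The 10 neutrophil markers summed to 10439 to 16618 in COMB, 5143 to 5937 in LPS, 2825 to 3332 in HPO and 3499 to 6081 in CTL pools. Among them Lcn2 had means of 4408 in COMB, 975 in LPS, 35.7 in HPO and 24.5 in CTL. S100a9 was uneven in CTL, at 697 ± 1138 (SD). In COMB against CTL 5 of the 10 were called higher and 1 lower, beside 11.0% of all genes each way. The lower one was Camp, by -0.92 (adjusted p = 0.00189 by limma). Camp was also lower in LPS than in CTL, by -0.82, a call lost without each of 5 pools. The 14 airway epithelial markers summed to 28100 to 37949 in COMB, 18368 to 20937 in LPS, 20415 to 21756 in HPO and 8261 to 11983 in CTL pools. The 13 T and NK cell markers reached 1313 to 8436 in COMB, 653 to 1030 in LPS, 896 to 1208 in HPO and 626 to 3594 in CTL pools. The 10 alveolar epithelial markers summed to 3327 to 4499 in COMB, 1742 to 2517 in LPS, 1969 to 2276 in HPO and 1406 to 2335 in CTL pools. For the 7 monocyte markers the sums were 5798 to 7755, 4590 to 7823, 4715 to 5743 and 4601 to 5426, in the same order. No marker was at 0 in any list, and in such mixtures fewer cells of a type and less RNA per cell cannot be told apart. Airway epithelial sums were thus higher in COMB, LPS and HPO than in CTL pools, and neutrophil sums were highest in COMB, and their part in the levels of Cirbp and Rbm3 was not tested.

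The upstream sequences are shown because the mouse Cirbp promoter holds a known mild cold response element, with the letters TCCCCGCC, which SP1 binds. Both stretches come from the RefSeq promoter windows of build GRCr8, from the upstream end of the window to the last base before the annotated gene. Capitals mark TCCCCGCC and the GC box GGGCGG on either strand, and 1 GC box overlaps the cold response element.
Cirbp, chr7:10189624-10189725, minus strand: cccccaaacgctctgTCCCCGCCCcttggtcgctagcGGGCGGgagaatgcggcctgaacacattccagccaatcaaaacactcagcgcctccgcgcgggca
Rbm3, chrX:17020655-17020862, plus strand: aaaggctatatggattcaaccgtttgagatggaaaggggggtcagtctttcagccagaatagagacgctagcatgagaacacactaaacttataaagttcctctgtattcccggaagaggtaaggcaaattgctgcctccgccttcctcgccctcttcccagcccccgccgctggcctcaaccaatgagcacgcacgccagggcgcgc
Over whole windows of the same length, TCCCCGCC matched on either strand 1 time in Cirbp, from base 16 of the stretch shown, and 0 times in Rbm3. It matched in 5.06% of 27457 rat promoter windows, and GGGCGG, found 5 times in the Cirbp window and 0 times in that of Rbm3, matched in 34.9%. The CCAAT box matched 2 times in Cirbp, 1 time in Rbm3 and in 37.7% of windows. Paired half-sites of the heat shock element, TTCNNGAA and GAANNTTC, matched 0 times in both genes, against 8.49% and 8.34% of windows. These matches describe letters in a window and not bound sites.

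Cirbp mRNA was highest in HPO and lowest in LPS pools. The probe set of highest signal, 1385904_at, had an intensity of 240, 201 and 193 in the COMB pools, 64, 75.5 and 38.8 in the LPS pools, 275, 428 and 436 in the HPO pools, and 175, 149 and 178 in the CTL pools. In every pair of groups all pools of 1 group lay above all pools of the other, and the lowest HPO pool, pool 1, was still above the highest COMB pool. The means were 211 ± 25.3 in COMB, 59.4 ± 18.8 in LPS, 380 ± 90.8 in HPO and 167 ± 15.8 in CTL (SD, n = 3 each). LPS alone was 2.88-fold lower than CTL, a log2 difference of -1.53 (SE 0.23), and HPO alone was 2.22-fold higher than CTL, a log2 difference of 1.15 (SE 0.23). With array weights, which give HPO pool 1 the most weight, the difference of HPO from CTL was 0.74.

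With hypoxia on top of LPS, Cirbp was not at the level of LPS alone. COMB exceeded LPS by 3.62-fold at this probe set, with a log2 difference of 1.86 (SE 0.23). COMB stayed below HPO, with a log2 difference of -0.82 (SE 0.23), and its lowest pool, at 193, was above the highest CTL pool, at 178. The difference of COMB from CTL was small, 0.33 on the log2 scale (SE 0.23).

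**Figure D1:**
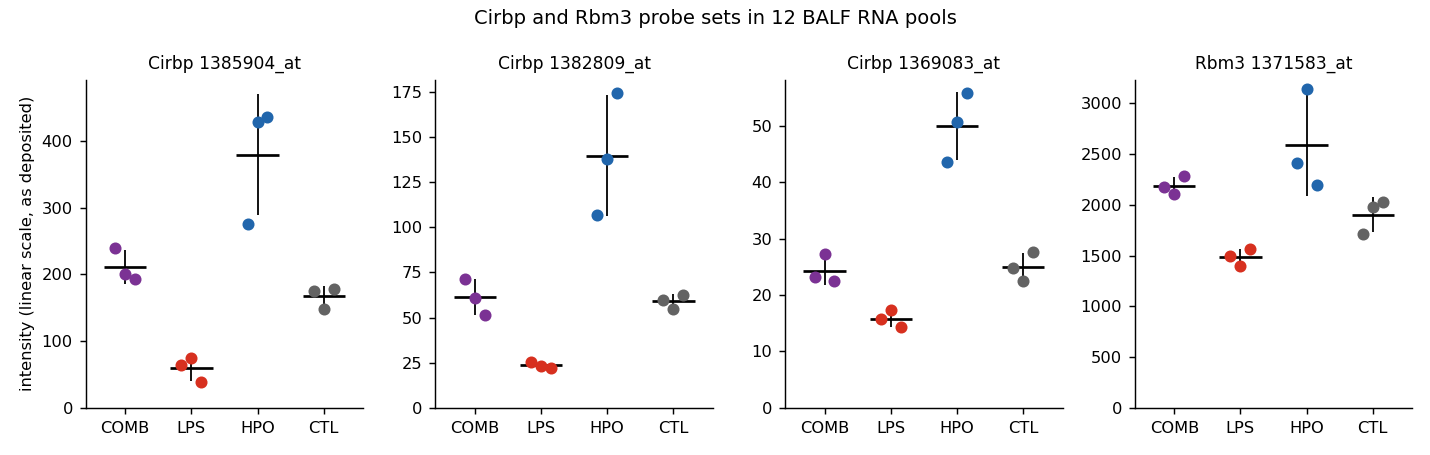
Intensity on the linear scale of the 3 Cirbp probe sets and the Rbm3 probe set in the COMB, LPS, HPO and CTL groups. Points are RNA pools, horizontal lines are means and vertical lines are ± 1 SD (n = 3). At Cirbp 1385904_at the HPO pools lie between 275 and 436 and the LPS pools between 38.8 and 75.5.

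The other Cirbp probe sets measured the same gene at lower signal. Probe set 1382809_at had 71.5, 60.9 and 51.4 in COMB, 25.3, 23.2 and 22.2 in LPS, 107, 138 and 174 in HPO, and 59.9, 54.5 and 62.6 in CTL pools. All LPS pools were low and close together, all HPO pools were high, and the COMB pools overlapped with the CTL pools. The log2 differences were -1.29 (SE 0.16) for LPS against CTL, 1.21 for HPO against CTL, 1.33 for COMB against LPS and 0.04 for COMB against CTL.

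Probe set 1369083_at was dim, between the 27.4 and the 58.6 percentile of its array. It had 23.2, 27.2 and 22.5 in COMB, 15.8, 17.4 and 14.3 in LPS, 43.6, 50.6 and 55.7 in HPO, and 24.8, 22.5 and 27.6 in CTL pools. Again the LPS pools were lowest, the HPO pools were highest, and COMB overlapped with CTL. Its differences were -0.63 (SE 0.12) for LPS against CTL, 0.97 for HPO against CTL and 0.59 for COMB against LPS on the log2 scale. The dim signal limits the size of a fold change at this probe set, and on a scale of log2 with a pseudocount of 16 its difference was -0.36 for LPS against CTL, 0.34 for COMB against LPS and -1.05 for LPS against HPO.

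Rbm3 followed the same order with smaller differences and a far brighter signal, between the 97.5 and the 99.2 percentile of its array. The intensity was 2176, 2110 and 2283 in COMB, 1494, 1401 and 1566 in LPS, 2415, 3146 and 2195 in HPO, and 1711, 1979 and 2026 in CTL pools. The 3 LPS pools were below all others, whereas the HPO pools spread widely and overlapped with COMB. HPO pool 2 was the highest, and HPO pool 3 lay within the range of COMB. The means were 2190 ± 87.4 in COMB, 1487 ± 82.6 in LPS, 2585 ± 498 in HPO and 1905 ± 170 in CTL (SD, n = 3 each).

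For Rbm3 the log2 difference was -0.35 (SE 0.13) for LPS against CTL and 0.43 (SE 0.13) for HPO against CTL. COMB differed from LPS by 0.56 (SE 0.13), from HPO by -0.22 and from CTL by 0.20. Without HPO pool 2, HPO differed from CTL by 0.28 and COMB from HPO by -0.07, and without CTL pool 1 COMB differed from CTL by 0.13. Levels of the 2 genes are not set against each other, since brightness depends on the probes.

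**Figure D2:**
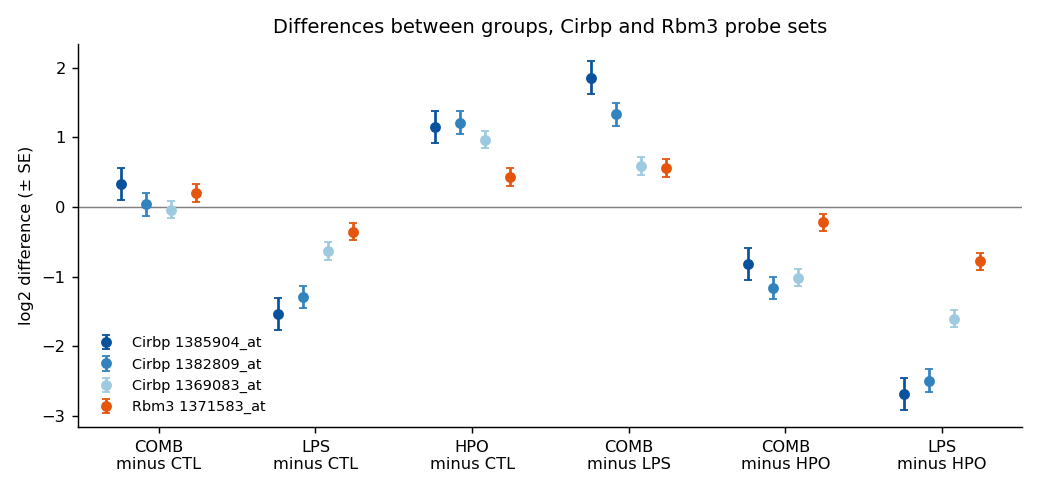
Log2 differences between groups for the 4 probe sets, with the first group named minus the second. Points are fitted differences and bars are ± 1 SE from the fit of 12 arrays. All 4 probe sets lie below 0 for LPS minus CTL and LPS minus HPO and above 0 for HPO minus CTL and COMB minus LPS.

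Counted over the 4 probe sets, LPS and CTL pools did not overlap at 4, as they did not at 26.5% of the 25692 probe sets tested. HPO and CTL pools did not overlap at 4 (15.6% of all), COMB and LPS pools at 4 (34.2%), and LPS and HPO pools at 4 (27.4%). COMB and HPO pools did not overlap at the 3 Cirbp probe sets (27.7%), and COMB and CTL pools at 2, Cirbp 1385904_at and Rbm3 (36.6%). Because these contrasts chose the genes, the counts describe them and nothing is read from their distance to the background. The 3 Cirbp probe sets share their target mRNA and count as 1 gene.

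The order of the group means was HPO, COMB, CTL and LPS, from high to low, at 2 Cirbp probe sets and at Rbm3. At Cirbp 1369083_at CTL came before COMB, with means of 24.3 ± 2.54 in COMB and 25 ± 2.56 in CTL, a difference within the spread of the pools. COMB and CTL were thus neighbours without a clear order at 2 of the Cirbp probe sets, and COMB and HPO were such neighbours at Rbm3.

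LPS against HPO gave the widest difference for both genes. Cirbp was 6.39-fold lower in LPS than in HPO at 1385904_at, a log2 difference of -2.68 (SE 0.23) for LPS minus HPO, and 5.63-fold and 3.02-fold lower at the other probe sets. Rbm3 was 1.72-fold lower in LPS than in HPO, a log2 difference of -0.78 (SE 0.13) for LPS minus HPO. Among 12853 genes, each taken at its brightest probe set, Cirbp had rank 2 from the lowest in this difference and Rbm3 rank 229. In LPS against CTL, Cirbp had rank 5 from the lowest and Rbm3 rank 1180, and in HPO against CTL Cirbp had rank 65 from the highest and Rbm3 rank 470.

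**Figure D3:**
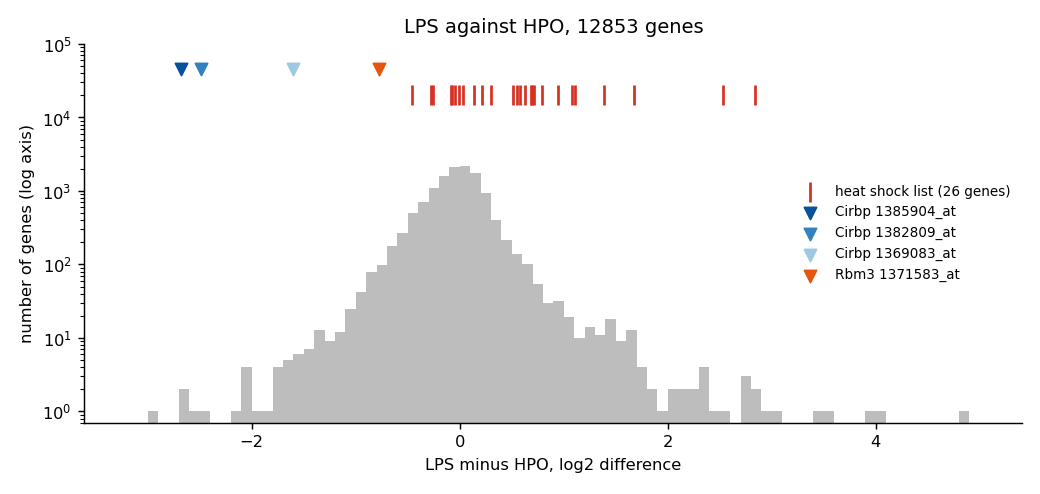
Distribution of the log2 difference LPS minus HPO over 12853 genes, on a log axis of gene number. Triangles mark the 4 probe sets of Cirbp and Rbm3, at -2.68, -2.49, -1.60 and -0.78, and red ticks mark the 26 genes of the heat shock list, of which 15 were called higher in LPS and 0 lower.

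If LPS and hypoxia acted additively on the log2 scale, the COMB level at Cirbp 1385904_at would be 128, and the observed geometric mean was 210. The interaction, COMB minus LPS less HPO minus CTL, was 0.71 (SE 0.33), and 0.43 without LPS pool 3. At 1382809_at the additive level was 55.6 and the observed level 60.7, with an interaction of 0.12 (SE 0.23), which was -0.05 without HPO pool 1 and 0.30 without HPO pool 3. At 1369083_at the interaction had the opposite sign, -0.38 (SE 0.17), with 31.9 for the additive level and 24.2 observed. With array weights the interaction was 0.40 at 1382809_at and -0.12 at 1369083_at. The 3 probe sets of Cirbp thus gave no common sign, and Rbm3 was close to additive, with 1998 for the additive level, 2189 observed and an interaction of 0.13 (SE 0.18), which was 0.02 without HPO pool 3 and 0.28 without HPO pool 2. Across the array the interaction passed the test at 0.156% of genes above 0 and 0.0233% below 0.

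Over the 12 arrays the log2 values of the Cirbp probe sets went together, with r between 0.914 and 0.965. Within groups, after the group means were taken out, r was between 0.64 and 0.71. Cirbp 1385904_at and Rbm3 had r = 0.858 over the arrays, but r = -0.11 within groups, so their likeness lay in the group means and not in the order of pools within a group. The arrays share the 4 treatments, and these correlations are descriptions over 12 points.

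**Figure D4:**
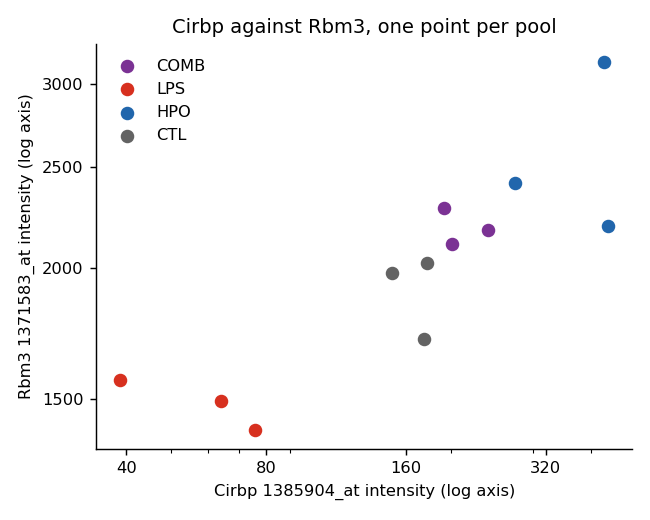
Intensity of Cirbp 1385904_at (horizontal) and of Rbm3 (vertical), both on log axes, one point per RNA pool. The LPS pools are lowest for both genes, and r over the 12 pools of log2 values is 0.858.

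Rbm3 had rank 104 of 12852 genes by its r to Cirbp, and Cirbp had rank 6 by its r to Rbm3. The genes most like Cirbp were Ccdc9 (r = 0.973), Gkap1 (0.969), Myg1 (0.968), Zbtb20 (0.966) and Use1 (0.964). Those most like Rbm3 were Zbtb20 (0.889), Bin3 (0.870), Srsf5 (0.862), Use1 (0.860) and Efcab2 (0.860). Zbtb20, a zinc finger transcriptional repressor, had 170, 157 and 174 in COMB, 106, 119 and 103 in LPS, 181, 192 and 191 in HPO, and 146, 161 and 151 in CTL pools. Its LPS pools were below and its HPO pools above all CTL pools, as with both cold-inducible genes. These genes were picked for likeness in the same arrays, so their differences, those of Srsf5 included, are given without a test.

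Heat shock genes were higher in LPS, where Cirbp and Rbm3 were lowest. Of 29 listed chaperones, co-chaperones and regulators, 26 were measured, and 10 rose and 0 fell in LPS against CTL by limma with Benjamini-Hochberg adjustment, where 1.24% of all genes rose and 1.54% fell. Their median log2 difference was 0.46, beside -0.02 over all genes. The count dropped to 3 without CTL pool 3, and to 5 without CTL pool 1 or any single LPS pool.

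Hsph1, a cytosolic HSP110 chaperone, had 1707, 1434 and 2263 in LPS and 481, 521 and 520 in CTL pools, with no overlap. Its log2 difference was 1.80 (adjusted p = 0.0003). Stip1, the co-chaperone that links HSP70 and HSP90, had 435, 394 and 464 in LPS against 197, 201 and 200 in CTL pools, a log2 difference of 1.11 (adjusted p = 0.00233). Both calls held without any single pool, as did that of the co-chaperone Fkbp4, at 0.82 (adjusted p = 0.00928).

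Hspa1a, the stress-inducible HSP70, was uneven among controls. It had 752, 719 and 541 in LPS and 156, 454 and 172 in CTL pools, where pool 2 stood high. Its log2 difference was 1.52 (adjusted p = 0.0381), and the adjusted p reached 0.166 without CTL pool 3 and was above 0.05 without each of 6 other pools. Hsf1, whose product activates these genes, was not called, with a difference of 0.17 (adjusted p = 0.605).

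In HPO against CTL 0 heat shock genes were called, where 0.0311% of all genes rose and 0% fell. At an unadjusted p under 0.05 there were 11 of 26, beside 2494 of 25692 probe sets. The median log2 difference was -0.14, beside -0.00 over all genes, with 7 of 26 above 0. With array weights 13 of the 26 genes were called, beside 3576 of 25692 probe sets. The weights were 6.38, 0.738 and 0.226 for HPO pools 1 to 3, and 0.76, 0.759 and 4.12 for the CTL pools. That fit therefore rests largely on 1 pool in each of these groups. Hsph1 had 328, 252 and 342 in HPO pools, all below the CTL pools, with a log2 difference of -0.73 (adjusted p = 0.129). Hspa1a had 89.1, 77.7 and 111 in HPO pools, with a log2 difference of -1.32 (adjusted p = 0.184).

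LPS against HPO separated the heat shock list furthest. 15 of 26 genes were higher in LPS and 0 lower, beside 3.08% and 5.20% of all genes, and the count lay between 11 and 16 when any pool was left out. Hspa1a differed by 2.84 on the log2 scale (adjusted p = 0.000886), Hsph1 by 2.54 (adjusted p = 8.38e-06), Stip1 by 1.67 (adjusted p = 4.2e-05) and the co-chaperone Chordc1 by 1.38 (adjusted p = 0.00059). This contrast uses neither the CTL pools nor the COMB pools except for the shared estimate of spread. The airway epithelial sums overlapped between these groups, 18368 to 20937 in LPS and 20415 to 21756 in HPO, and the neutrophil sums did not, 5143 to 5937 in LPS and 2825 to 3332 in HPO. Within the neutrophil sum Lcn2 had means of 975 in LPS and 35.7 in HPO. Of the 10 neutrophil markers 2 were called higher in LPS than in HPO and 0 lower, with 9 above 0. Of the 7 monocyte markers 3 were called higher and 0 lower, with 6 above 0 and a median of 1.02. Their sums overlapped, 4590 to 7823 in LPS and 4715 to 5743 in HPO. Of the 14 airway markers 2 were called lower in LPS than in HPO, the club cell enzyme gene Cyp2f4 by -2.64 (adjusted p = 0.00597) and the keratin gene Krt19 by -2.01 (adjusted p = 0.00353), with 4 of 14 above 0 and a median of -0.46. The part of these cells in the differences of LPS against HPO, those of Cirbp and Rbm3 included, was not tested.

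Of 26 heat shock genes, 12 were lower in COMB than in LPS, 2 were higher and 12 were not called, beside 5.04% lower and 8.64% higher of all genes. Those higher were Dnajb6, by 0.60 (adjusted p = 0.0111), and Hspa4l, by 0.57 (adjusted p = 0.0393). The call of Dnajb6 was lost without LPS pool 3 (adjusted p = 0.052), and that of Hspa4l without each of 8 pools (adjusted p up to 0.131, without LPS pool 1). Hspa4l was dim, with means of 15.3 in COMB, 9.82 in LPS, 9.6 in HPO and 8.73 in CTL. Its means outside COMB lay below the 20th percentiles of the arrays, 10.13 to 11.25, so its calls compare COMB with values near the floor. The filter on low signal may have admitted Hspa4l through the COMB pools alone. Its calls in COMB are therefore counted but not taken as support. Hspa1a had 178, 132 and 137 in COMB pools, below all LPS pools, with a log2 difference of -2.16 (adjusted p = 0.00216), and Hsph1 had 621, 645 and 654, with -1.47 (adjusted p = 0.000563). Dnaja1, a J-domain co-chaperone, differed by -0.86 (adjusted p = 0.000952).

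Against HPO, 6 heat shock genes were higher in COMB and 0 lower, beside 9.18% and 9.36% of all genes, and this count fell to 2 without HPO pool 1 or 2. It was also 3 without COMB pool 2 or 3. Against CTL 3 were higher in COMB and 0 lower, beside 11.0% of all genes in each direction: Hspa4l at 0.73 (adjusted p = 0.00798), Hspa9 at 0.48 (adjusted p = 0.0203) and Dnajb6 at 0.44 (adjusted p = 0.0305). The count against CTL was 1 without CTL pool 2 or 3. Hspa4l, near the floor outside COMB and perhaps admitted by the filter through COMB alone, is among those counted as higher both against HPO and against CTL. Airway epithelial, neutrophil and T and NK cell sums were higher in COMB than in LPS and their part in these counts was not tested.

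**Figure D5:**
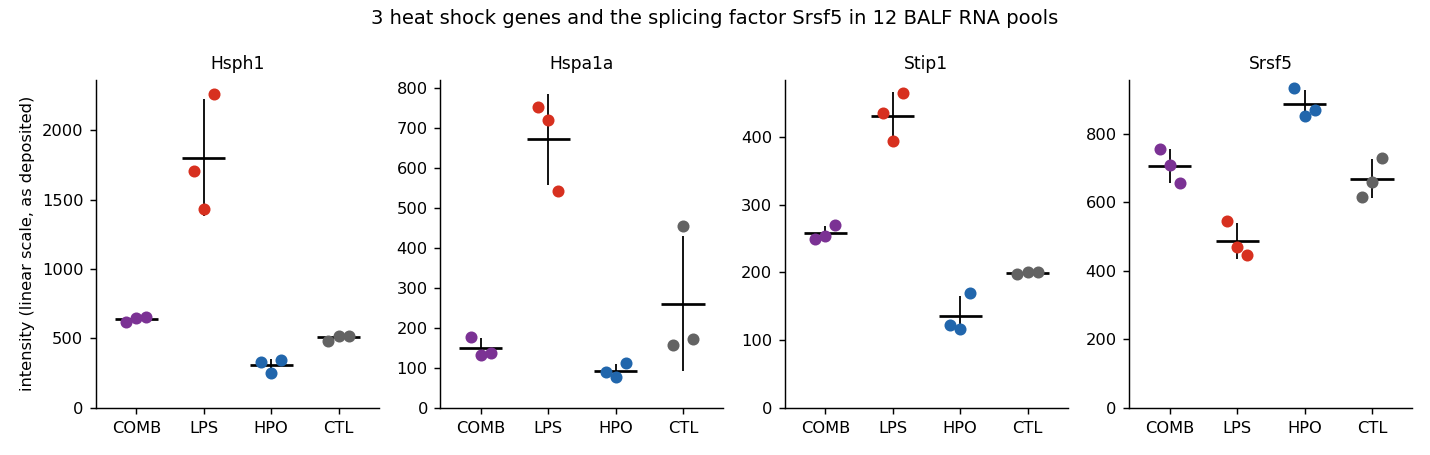
Intensity on the linear scale of Hsph1, Hspa1a, Stip1 and Srsf5 in the COMB, LPS, HPO and CTL groups. Points are RNA pools, horizontal lines are means and vertical lines are ± 1 SD (n = 3). The LPS pools of Hsph1 lie between 1434 and 2263, above all other pools, and those of Srsf5 lie between 446 and 546, below all other pools.

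Among splicing factors and RNA-binding relatives, 39 of 43 listed genes were measured and few passed the test. In LPS against HPO 2 were higher and 3 lower, beside 3.08% and 5.20% of all genes, and the median log2 difference of the list was -0.05. The total of 5 was 3 without LPS pool 1 or 3. Srsf5, an SR splicing factor reported to be cold-inducible in human cells, had 754, 708 and 656 in COMB, 546, 470 and 446 in LPS, 932, 852 and 870 in HPO, and 616, 660 and 729 in CTL pools. Its LPS pools were below all others and its HPO pools above all others, the same order as Cirbp. Its log2 difference was -0.86 (SE 0.10) in LPS against HPO, 0.54 in COMB against LPS, -0.46 in LPS against CTL and 0.41 in HPO against CTL. As one of the genes most like Rbm3 it is given without a test, and it is 1 of the 3 counted as lower in LPS against HPO.

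Tardbp, which encodes the RNA-binding protein TDP-43, went the other way, with 1.08 in LPS against HPO (adjusted p = 0.000799), as did Elavl1, which encodes the mRNA-stabilising protein HuR, at 0.54 (adjusted p = 0.00852). Hnrnpd, which encodes the AU-rich element binding protein AUF1, had -0.80 (adjusted p = 0.0168) in LPS against HPO, and its adjusted p was above 0.05 without each of 3 pools and reached 0.0719 without LPS pool 3. The temperature-responsive SR kinases Clk1 and Clk4 were not called in any comparison, with log2 differences of -0.19 (adjusted p = 0.356) and -0.22 (adjusted p = 0.225) in LPS against HPO.

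In the other comparisons this list had 3 higher and 1 lower in COMB against CTL (11.0% of all genes each way) and 1 and 1 in LPS against CTL (1.24% and 1.54%). It had 3 and 1 in COMB against LPS (8.64% and 5.04%) and 3 and 1 in COMB against HPO (9.18% and 9.36%). In HPO against CTL 0 were called by limma. At an unadjusted p under 0.05 there were 9 of 39, beside 2494 of 25692 probe sets. Without COMB pool 1 limma called 2 of the list, beside 120 of all probe sets. Hnrnpa1, a splicing repressor, was higher in COMB than in CTL by 0.51 (adjusted p = 0.00228). Without HPO pool 3 the count was 8 in COMB against CTL and 7 in both other COMB comparisons, whereas COMB against HPO had 2 without COMB pool 3, and the 2 calls of LPS against CTL fell to 0 without CTL pool 1, among others.

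CIRBP is known in mouse fibroblasts to bind the mRNA of Clock and to keep circadian rhythms strong, and 19 of 21 listed clock genes were measured. Clock itself was not called, with -0.10 in LPS against CTL (adjusted p = 0.802) and -0.13 in HPO against CTL (adjusted p = 0.848). Cry1, a repressor of the clock, was higher in LPS than in CTL by 0.91 (adjusted p = 0.00462) and than in HPO by 0.81 (adjusted p = 0.00341). Dbp, a transcription factor under clock control, was higher in COMB than in LPS by 0.97 (adjusted p = 0.00228), and Rora, a nuclear receptor of the clock, by 1.40 (adjusted p = 0.00332). Rora was dim, with means of 36.5 in COMB, 13.1 in LPS, 15.9 in HPO and 13.7 in CTL, where array 20th percentiles ran from 10.13 to 11.25. Over the list, 4 genes were higher in COMB than in CTL (11.0% of all genes), 4 than in LPS (8.64%) and 3 than in HPO (9.18%), and 0 were lower in these. In LPS 1 was higher and 1 lower than in CTL (1.24% and 1.54% of all genes), 1 was higher and 2 lower than in HPO (3.08% and 5.20%), and in HPO against CTL limma called 0, with 3 at an unadjusted p under 0.05. The 4 calls of COMB against LPS fell to 2 without LPS pool 1 or 3, and the 3 of LPS against HPO were 1 without LPS pool 1 and 6 without COMB pool 1. The 2 calls of LPS against CTL were 1 without CTL pool 1 or 3 or any single LPS pool. The time of day of the lavage is not given in the sources used here. Airway epithelial and T and NK cell sums were higher in COMB than in LPS, and their part in the clock genes was not tested.

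Of the 9 reported partners of CIRBP and RBM3, 8 were measured, while Trem1, a receptor for extracellular CIRBP, was not matched alone. Tlr4 was higher in COMB than in HPO by 0.58 (adjusted p = 0.00534) and in LPS than in HPO by 0.58 (adjusted p = 0.0118), of which the second lost its call without LPS pool 1 (adjusted p = 0.0601). No Tlr4 difference from CTL was called. These log2 differences were -0.27 for HPO, 0.31 for LPS and 0.31 for COMB. Their adjusted p-values by limma were 0.468, 0.213 and 0.0787, in that order. Mean Tlr4 intensity was 524 in LPS and 526 in COMB, and this pair was not called either (adjusted p = 0.999). Ly96, which encodes the TLR4 co-receptor MD-2, was not called in any comparison, with -0.15 in LPS against CTL (adjusted p = 0.513). Rtn3, reported in mouse brain as an RBM3 target, was lower in COMB than in the other groups, with log2 differences of -0.58 against LPS (adjusted p = 0.00259), -0.53 against HPO (adjusted p = 0.00245) and -0.59 against CTL (adjusted p = 0.000898). Sp1 had -0.43 in LPS against HPO (adjusted p = 0.0102), and its adjusted p was 0.0565 without LPS pool 1. Txn1, Rpa2 and Atr were not called in any comparison.

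Hypoxia targets were examined because both cold-inducible genes are reported to respond to low oxygen. Of 29 genes measured, 0 were called in HPO against CTL by limma, where 0.0311% of all genes rose and 0% fell. At an unadjusted p under 0.05 there were 6, beside 2494 of 25692 probe sets, and the median log2 difference was 0.02. In COMB against CTL 6 were higher and 1 lower, beside 11.0% of all genes each way, led by Epas1, which encodes HIF-2α, at 1.82 (adjusted p = 0.000161) and Ankrd37, a HIF-1 target, at 1.34 (adjusted p = 0.00177). In COMB against HPO 8 were higher and 3 lower, beside 9.18% and 9.36% of all genes. In LPS against HPO 2 were higher and 6 lower, beside 3.08% and 5.20%. These totals of 7, 11 and 8 fell to 4 without CTL pool 3, to 5 without HPO pool 2, and to 2 without LPS pool 1. In COMB against LPS, where hypoxia was added to LPS, 5 were higher and 1 lower, beside 8.64% and 5.04% of all genes. The median log2 difference there was 0.22, with 24 of 29 above 0. The total of 6 fell to 2 without LPS pool 1 or 2. Airway epithelial, neutrophil and T and NK cell sums were higher in COMB than in LPS, and their part in these targets was not tested.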

How the data were processed

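Per the labels, total RNA of BALF cells was pooled within groups and hybridised to Affymetrix Rat Genome 230 2.0 arrays. The deposited table gives intensity on a linear scale for each probe set, made by the authors from the scans. Their method of normalization and background correction is not given in the sources used here, and background correction moves dim probe sets most. Array medians ran from 32.72 to 35.61. Of 31099 probe sets, 25692 entered the fit because their signal exceeded an array's 20th percentile in 3 or more arrays, with 57 control probe sets left out. Values were tested as log2(intensity + 1) with limma 3.58.1 in R 4.3.3, with 4 group means over all 12 arrays and Benjamini-Hochberg adjustment over all probe sets at 0.05, and the code was tested on simulated data. Probe sets were named from the platform annotation, in which 20826 name 1 gene, 436 several and 9831 none, and 12853 genes were each represented by the probe set of highest mean. The members and lists were chosen with earlier results of these data known. Named genes were both members, up to 4 called genes of largest difference per list and comparison (2 for marker lists), all measured partners, 5 genes preset by name and the 5 genes most alike to each member. Alternatives were another normalization, pseudocount, filter, array weights, a fit of 2 groups, the methods' t-test and each pool left out. The number of arrays limits the precision. Promoter windows were from RefSeq, GRCr8.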

Additional observations from a re-analysis of the deposited data

Results flagged for a closer look

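For each result given here, the LPS pools all lay on one side of every CTL pool and the HPO pools all lay on the other. The value is the log2 difference of LPS minus HPO, and the CTL pools enter only through that separation, which uses the same LPS and HPO pools as the test. For the probe sets of Cirbp it was -2.68 at 1385904_at, -2.49 at 1382809_at and -1.60 at 1369083_at, and for Rbm3 it was -0.78; the difference was not tested, because these genes were chosen on it.

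Heat shock genes had the opposite sign. The difference was 2.84 for Hspa1a (adjusted p = 0.000886), 2.54 for Hsph1 (adjusted p = 8.38e-06), 1.67 for Stip1 (adjusted p = 4.2e-05), 1.38 for Chordc1 (adjusted p = 0.00059) and 1.08 for Dnaja1 (adjusted p = 0.000312), all by limma with Benjamini-Hochberg adjustment.

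Among RNA-binding relatives and partners it was 1.08 for Tardbp (adjusted p = 0.000799), 0.54 for Elavl1 (adjusted p = 0.00852), 0.58 for Tlr4 (adjusted p = 0.0118) and -0.43 for Sp1 (adjusted p = 0.0102). Among cell type markers it was -2.01 for the epithelial keratin Krt19 (adjusted p = 0.00353) and 2.72 for the monocyte marker Vcan (adjusted p = 0.0115). For the genes most like Cirbp or Rbm3 it was -0.86 for Srsf5, -0.78 for Zbtb20, -0.79 for Use1, -0.74 for Myg1, -0.70 for Ccdc9, -0.52 for Gkap1 and -0.32 for Bin3, not tested since likeness to the pattern chose them.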

How the results depend on the processing

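Across the settings run, 3 of the 28 log2 differences of Cirbp and Rbm3 changed sign, all small: COMB against CTL at 1382809_at (0.04, at lowest -0.07) and at 1369083_at (-0.04, at highest 0.06), and the interaction at 1382809_at (0.12, at lowest -0.08). Of 336 such values with a pool left out, 336 stayed within 1 residual SD of the fit, as did 258 of 276 under the other settings. Leaving out 1 of 3 pools can hardly move a difference by more than this SD. The first count was thus nearly fixed by its construction and says little about stability. With array weights, HPO against CTL was 0.74, 0.86 and 0.73 at Cirbp 1385904_at, 1382809_at and 1369083_at, and LPS against HPO was -2.26, -2.17 and -1.43. COMB against HPO was then -0.91 at 1382809_at and -0.82 at 1369083_at, and the interaction 0.40 and -0.12. With a pseudocount of 16, 1382809_at had -0.92 in LPS against CTL, 0.96 in COMB against LPS and -1.95 in LPS against HPO. With it 1369083_at had -0.36 in LPS and 0.69 in HPO against CTL, and 0.34 in COMB against LPS, -0.71 in COMB against HPO and -1.05 in LPS against HPO.

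Counts of called probe sets depended more on the setting, and the causes were not tested beyond what a setting's construction shows. They were 4895 in COMB against CTL, 525 in LPS and 9 in HPO against CTL, then 3060 in COMB against LPS, 4004 in COMB against HPO, 1848 in LPS against HPO and 35 for the interaction. In the same order, leaving out a pool gave 3106 to 5677, 64 to 783, 0 to 120, 1526 to 3868, 2880 to 4289, 608 to 2274 and 2 to 643. Array weights, which lean on HPO pool 1 and CTL pool 3, gave 3702 in LPS and 3576 in HPO against CTL. They gave 4635 in COMB against LPS, 6774 in COMB against HPO, 5764 in LPS against HPO and 2116 for the interaction. A fit of the 2 groups alone gave 1147 in LPS and 63 in HPO against CTL, then 1734 in COMB against LPS and 1933 in COMB against HPO. The stricter filter gave 14 in HPO against CTL and 56 for the interaction, a pseudocount of 16 gave 5 and 78, quantile normalization gave 85 for the interaction, and scaling to housekeeping genes gave 14 in HPO against CTL. The methods' t-test after adjustment gave 544 in COMB against CTL, 1 in LPS against CTL, 0 both in HPO against CTL and in LPS against HPO, 14 in COMB against LPS and 17 in COMB against HPO. Unadjusted it gave 4425 in LPS and 2225 in HPO against CTL, then 5843 in COMB against LPS and 4481 in LPS against HPO.

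Over the 6 gene lists together, 20, 15, 0, 29, 27, 34 and 0 genes were called in the same order of comparisons. Leaving out a pool gave 14 to 28, 4 to 19, 0 to 3, 20 to 37, 15 to 28, 17 to 38 and 0 to 3. Array weights gave 38 in COMB against CTL, 41 in LPS against CTL, 32 in HPO against CTL, 50 in COMB against HPO, 57 in LPS against HPO and 14 for the interaction. A fit of the 2 groups alone gave 24 in LPS against CTL and 10 in COMB against HPO, the stricter filter gave 1 in HPO against CTL, a pseudocount of 16 gave 1 there and 2 for the interaction, and housekeeping scaling gave 33 in COMB against CTL. The adjusted t-test gave 3 in COMB against CTL, 0 in LPS against CTL, 1 in COMB against LPS, 0 in COMB against HPO and 0 in LPS against HPO, and the unadjusted one gave 43 in COMB against CTL, 45 in LPS and 26 in HPO against CTL, and 49 in COMB against LPS.

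Rat numbers in the labels recur across groups, and 24 of 54 pairs of pools from different groups share at least 1. Their deviations from the group means had r from -0.261 to 0.259, against -0.262 to 0.234 in the 30 pairs that share none. With 3 pools a group these correlations cannot decide whether rats were shared. The pools were taken to share only numbers because, by the study's methods, rats were assigned to separate groups and killed for the lavage. The block was set on the CTL and LPS pools of the same number (r = 0.039, -0.008 and -0.002), while CTL pool 2 and LPS pool 1 also share 1 rat number (r = -0.047). With this replicate block the probe sets called were 199 in LPS against CTL, 0 in HPO against CTL, 1156 in LPS against HPO and 5 for the interaction, and 8 genes of the 6 lists were called in LPS against CTL. The heat shock count in LPS against CTL was then 6 in place of 10, and it was 14 in place of 15 in LPS against HPO.

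Scaling to housekeeping genes moved the share of higher calls among genes to 68.9% in COMB against CTL from 50.1%, to 75.6% in LPS against CTL from 44.5%, to 64.5% in COMB against HPO from 49.5% and to 59.5% in LPS against HPO from 37.2%. Quantile normalization made it 48.9% in COMB against LPS in place of 63.2%. The housekeeping genes were not all stable themselves. Of the 11 measured, limma called Gusb lower in COMB against CTL (-0.65) and Polr2a lower in LPS against HPO (-0.45). In COMB against HPO Gusb was called lower (-0.52) and Pgk1, also a listed hypoxia target, higher (0.37). In LPS against CTL 0 of the 11 were called and 0 were above 0, with a median of -0.08. The heat shock genes called in LPS against HPO were all higher in LPS under each scaling, 15 or 16 of 26. The linear scale of the deposited intensities and their unstated background correction limit the fold changes of dim probe sets, and 3 pools a group limit every count.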
